A study of Raphidocelis subcapitata with 270 samples.

Results

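The 150 genes described here were those whose transcript levels varied least over a series of chemical exposures of Raphidocelis subcapitata, a single-celled freshwater green alga used in toxicity testing. They were chosen by the measured values themselves. Counts were scaled to the library total to give CPM, the counts of a gene in each 1000000 counts of a library, and 3778 of the 13429 genes in the tables had a mean of 50 to 1000 CPM over the 18 solvent control libraries. The SD of log2(CPM + 2) was taken over all 270 libraries, and the 150 genes with the lowest SD were kept, leaving 3628 others in the same range. Their low spread, and every comparison that rests on the same libraries, is therefore a description.

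Algae in exponential growth were kept for 24 h in 96-well plates, at 4300 lux of constant light and 24 °C, with 1 of 12 chemicals or with dimethyl sulfoxide (DMSO), the solvent control. Each chemical had 7 labelled levels, D1 to D7, with 3 libraries at each level. The 12 chemicals fell into 6 control sets of 45 libraries, and the 2 chemicals of a set were compared with the same 3 DMSO libraries. Set 1 held 1(2H)-Phthalazinone and Gabapentin, set 2 Metribuzin-DA and 2-tert-butyl-4-methoxyphenol, and set 3 Hydrochlorothiazide and 4-chlorophenyl methyl sulfone. Set 4 held Cetirizine Hydrochloride and Fipronil carboxamide, set 5 Fexofenadine and cis-nonachlordane, and set 6 Metolachlor OA and 3,4-Dichlorophenyl isocyanate. Nominal concentrations typically spanned 0.021 to 66.7 µM, but the labels give neither the concentration of a level nor which end of the range was D1, so no order is read from the level numbers. Whether a group's 3 libraries came from separate cultures is not labelled. A p-value here is set against the spread of libraries within groups, estimated over all groups fitted together. That spread may be technical.

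Genes of steady transcript level serve as references in quantitative PCR, where the level of another transcript is read against them. Such genes are often sought among those for basic cell functions such as translation, protein turnover and the cytoskeleton. In 3′ tag counting each transcript is read near its poly(A) end, so that counts depend little on transcript length, and the relative counting error falls as a transcript becomes more abundant. The files pair the identifiers with no names, so the 150 genes are given by identifier, with no role.

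Library totals ran from 596651 to 1909938 counts, with a median of 1083755. All 270 pairs of libraries within a group differed by more than sampling noise, with chi-square values per gene between 1.62 and 9.70, and no library was treated as a duplicate. The 150 genes together took between 4.94% and 5.51% of a library's counts, with a median of 5.25%. Each of the 150 genes had at least 56 counts in every library.

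The SD of the 150 genes on the log2 scale ran from 0.102 to 0.189, with a median of 0.174, against a median of 0.309 for the other 3628 genes. In CPM, the highest of the 270 libraries was 1.51 to 3.00 times the lowest, with a median of 1.98 times, against 3.43 times for the other genes that were above 0 in every library. The genes just inside the limit were Rsub_07147, with an SD of 0.1888, and Rsub_09520, with 0.189. The 2 just outside, Rsub_12381 and Rsub_03770, both had an SD of 0.1892, so the limit falls in a continuum and not at a gap.

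The 150 genes were also more abundant, with a mean of 116 to 915.5 CPM in DMSO and a median of 302, against a median of 99.0 for the others. None of the 1836 genes with a mean of 50 to 100 CPM was among them. The share was 34 of 1100 genes (3.09%) at 100 to 200 CPM, 71 of 568 (12.5%) at 200 to 400 CPM, and 45 of 274 (16.4%) at 400 to 1000 CPM. The SD that counting alone would give, from Poisson sampling at the library totals, was 0.0798 in the median of the 150 genes and 0.136 in the median of the others. Low spread and high abundance thus moved together, and the part of abundance in the choice was not tested beyond a ranking with the counting part subtracted, given among the processing alternatives.

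**Figure D1:**
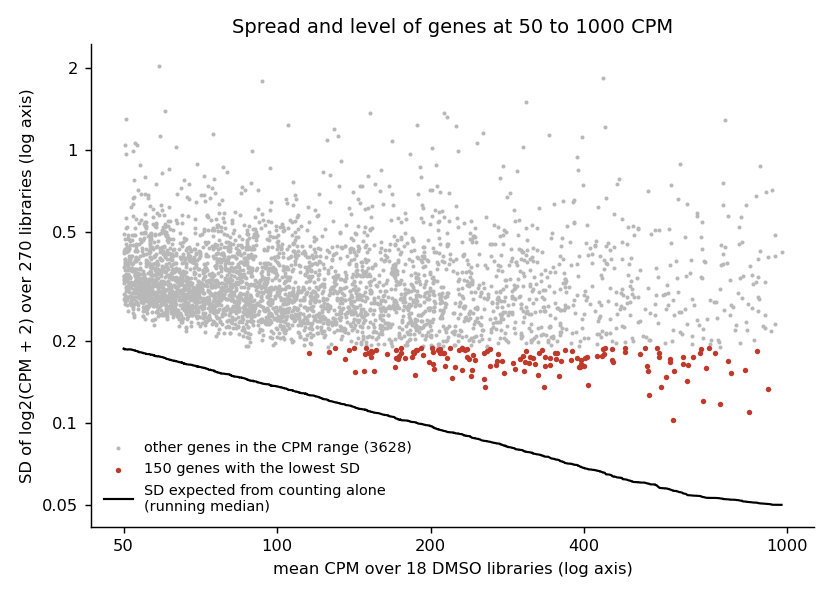
SD of log2(CPM + 2) over the 270 libraries against mean CPM in the 18 DMSO libraries, both on log axes, for 150 genes with the lowest SD (red) and the 3628 other genes at 50 to 1000 CPM (grey). The black line is the SD expected from counting alone, and the red points lie above it, with none below a mean of 115.6 CPM.

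Rsub_01110 had the lowest spread of all, with an SD of 0.102. Its level was 487 CPM in the lowest library, 599 in the median and 752 in the highest. In the DMSO libraries of sets 1 to 6 it stood at 589.7 ± 47.5, 599 ± 37.0, 615 ± 31.9, 624 ± 46.9, 588 ± 12.9 and 561 ± 27.7 CPM (mean ± SD, n = 3). Its mean in each of the 84 treated groups lay within 0.22 of its own DMSO mean on the log2 scale, and it was called in no chemical, at D1 or over all levels. A gene is said to be called where edgeR's quasi-likelihood test gave a Benjamini-Hochberg adjusted p under 0.05, adjusted over all genes tested in that comparison.

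The next 5 in order of SD were Rsub_07741 (0.110), Rsub_02796 (0.117), Rsub_08212 (0.121), Rsub_00885 (0.127) and Rsub_02030 (0.133). Rsub_07741 ran from 691 to 1045 CPM with a median of 855, and Rsub_02796 from 583 to 891 CPM with a median of 741. The first 4 of all 150 were called at D1 in no chemical, while Rsub_00885 and Rsub_02030 were each called at D1 of 3,4-Dichlorophenyl isocyanate. There Rsub_00885 stood at 560.3, 596 and 508 CPM in DMSO and at 462, 407 and 447 CPM at D1, with no overlap, a log2 fold change of −0.37 ± 0.0967 (SE; edgeR quasi-likelihood, adjusted p = 0.02021). This call ended on leaving out DMSO library A, DMSO library B, D1 library B or D1 library C, with adjusted p up to 0.126.

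Rsub_02030 was the most abundant of the 150 genes, at 915.5 CPM in DMSO, followed by Rsub_08215 at 871 and Rsub_07741 at 843. In 3,4-Dichlorophenyl isocyanate Rsub_02030 stood at 958, 1038 and 820.0 CPM in DMSO, at 666, 676 and 907 CPM at D1, and at 610.4, 661 and 682 CPM at D2. The D1 groups overlapped and the D2 groups did not. The log2 fold change was −0.35 ± 0.103 at D1 (edgeR quasi-likelihood, adjusted p = 0.0387) and −0.53 ± 0.104 at D2 (adjusted p = 0.00286). On leaving out DMSO library A or B or D1 library A or B, the D1 call ended, with adjusted p up to 0.212. In 4-chlorophenyl methyl sulfone Rsub_02030 was called at D3 and D6, with log2 fold changes of −0.37 ± 0.0906 (edgeR quasi-likelihood, adjusted p = 0.00518) and −0.31 ± 0.0899 (adjusted p = 0.0148), again with no overlap. It was not called over all levels of that chemical (edgeR adjusted p = 0.0569). Over all levels of 3,4-Dichlorophenyl isocyanate it was called (edgeR adjusted p = 0.03425). That call ended on leaving out DMSO library A or B or D1 library A or B. Thus even the gene ranked 6 of 3778 was called lower in groups of 2 chemicals.

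The least abundant were Rsub_09603 at 116 CPM in DMSO, Rsub_13061 at 127 and Rsub_03499 at 129.6. In the library where it had fewest counts, Rsub_09603 had 56, and it ran from 69.9 to 165 CPM over the 270 libraries with a median of 118. Most of the spread of such genes lay between libraries of the same group: the SD within groups was 0.167 for Rsub_09603, beside 0.125 from counting alone.

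**Figure D2:**
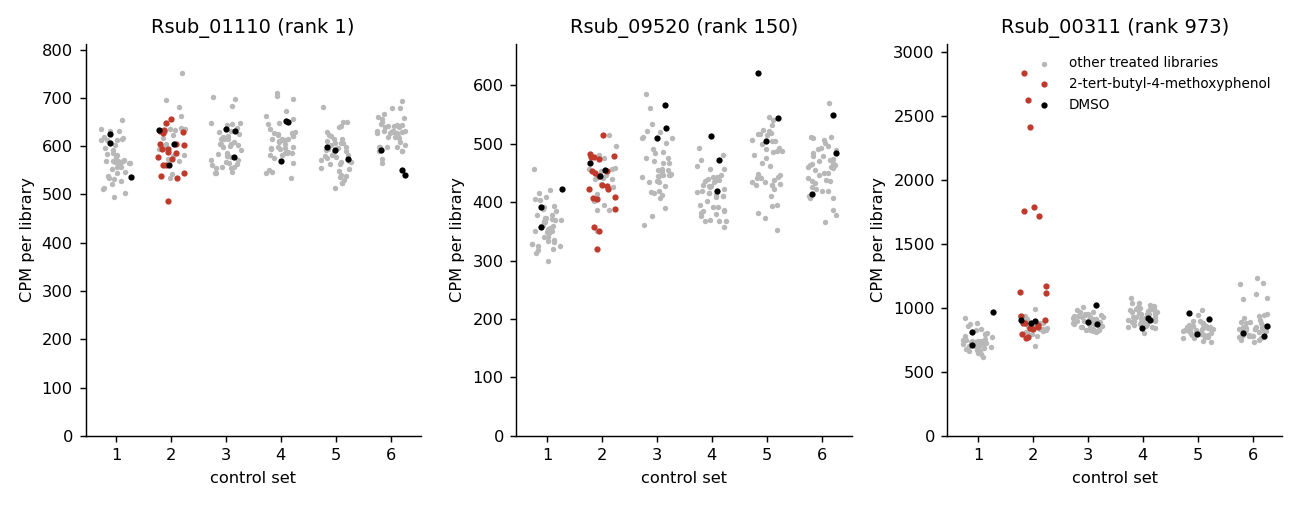
CPM in each of the 270 libraries by control set for Rsub_01110 (lowest SD), Rsub_09520 (the gene ranked 150) and Rsub_00311 (ranked 973, not among the 150), with DMSO libraries in black, 2-tert-butyl-4-methoxyphenol in red and other treated libraries in grey. Rsub_01110 stays between 487 and 752 CPM, while Rsub_00311 reaches 2835 CPM in 2-tert-butyl-4-methoxyphenol.

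Within groups, where the 3 libraries share a treatment, the SD of the 150 genes had a median of 0.134, against 0.220 for the other genes. Their variance within groups was 2.61 times the counting part in the median, against 2.64 times for the others. The biological coefficient of variation from edgeR, which leaves counting out, was 0.0772 in the median of the 150 genes and 0.116 in that of the others. The genes nearest to counting alone were Rsub_12519, at 1.61 times the counting part, Rsub_07367 and Rsub_13011, both at 1.63 times, and Rsub_12749 at 1.75 times. The farthest were Rsub_09769, at 9.73 times, and Rsub_01750, at 6.94 times.

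The genes at these extremes differed in abundance. Rsub_12519, at 142 CPM, had an SD within groups of 0.147, beside 0.116 from counting alone. Rsub_09769, at 676 CPM, had an SD within groups of 0.163, beside 0.0523 from counting alone. Its DMSO libraries in set 1 alone stood at 557 ± 133 CPM (SD, n = 3), and in set 2 at 691 ± 8.85.

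The variance of each gene was split, as shares of its sum of squares, between control sets, groups within sets, and libraries within groups. These are not variance components: the spread between libraries of a group also adds to the group and set shares. For the 150 genes the median shares were 22.5%, 32.6% and 41.6%, and for the others 37.0%, 27.0% and 33.1%. The control-set share ran from 1.92% for Rsub_08586 to 68.6% for Rsub_04315, the latter named after its value was seen. Counting alone would give 23.0% of the total variance in the median of the 150 genes and 17.7% in that of the others.

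Control sets were nevertheless visible in the 150 genes as a whole. Their first principal component held 12.0% of their variance. Scores ran from 0.469 to 1.43 in the libraries of sets 5 and 6 and from −1.33 to 0.431 in those of sets 1 to 4, with no overlap. Each set held its own pair of chemicals, and library totals also differed, with medians of 1004037 to 1087630 counts in sets 1 to 4, 1374054 in set 5 and 1148127 in set 6. These totals overlapped, from 731426 to 1909938 counts in sets 5 and 6 and from 596651 to 1479441 in sets 1 to 4, and the part of depth in the scores was not tested. The DMSO libraries, which received no chemical, were apart as well: the 6 of sets 5 and 6 had scores of 0.876 to 1.13, and the 12 of sets 1 to 4 had −1.04 to 0.0624.

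**Figure D3:**
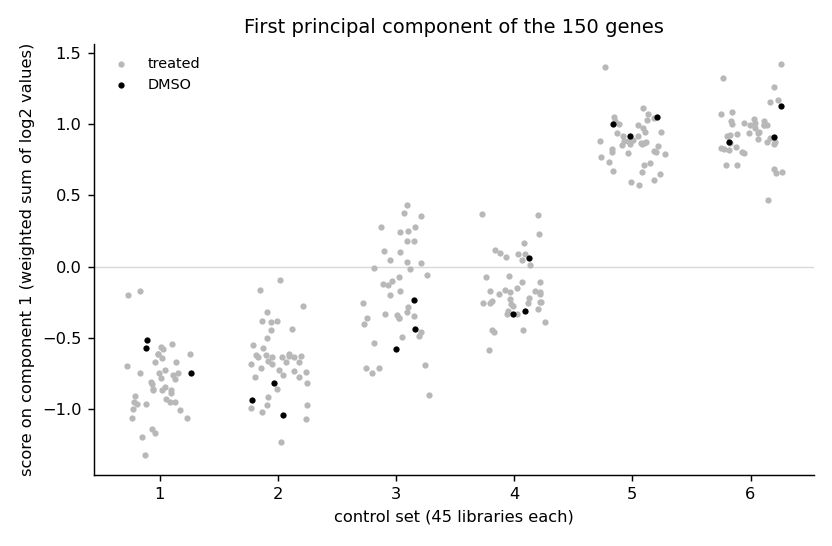
Score of each library on the first principal component of the 150 genes (a weighted sum of centred log2 values), by control set, with DMSO libraries in black and treated libraries in grey. All scores of sets 5 and 6 are above 0.468 and all scores of sets 1 to 4 are below 0.432.

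The median absolute difference of the 150 genes between 2 set means ran from 0.05 on the log2 scale, between sets 5 and 6, to 0.12, between sets 2 and 6. For the other genes it ran from 0.07, again between sets 5 and 6, to 0.35, between sets 1 and 6. Pairs of the 150 genes had a median correlation of 0.02 over the 270 libraries, with 90% of the 11175 pairs between −0.28 and 0.32. These are descriptions over libraries that share sets, depth and treatments.

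Among the 6 sets of DMSO libraries, edgeR's quasi-likelihood test called 36 of the 150 genes (24.0%), beside 35.3% of all genes tested. The count depended on the replicates used: it was 33 without replicate A of each set, 11 without replicate C and 0 without replicate B, where 11 had an unadjusted p under 0.05. Each of these left a library out of every set, and the share of all genes tested that were called was then 29.4%, 22.9% and 14.3%. DESeq2 called 41 with all libraries. Since these libraries took part in the choice, nothing is read from the difference between the shares.

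The widest range of DMSO means over the sets was that of Rsub_03935, at 0.61 on the log2 scale, followed by Rsub_04911 at 0.60, Rsub_08934 at 0.595 and Rsub_09280 at 0.586. Rsub_03935 stood at 524 ± 57.8, 471 ± 24.9, 342 ± 27.7, 381 ± 19.6, 482 ± 65.3 and 428 ± 31.7 CPM in the DMSO libraries of sets 1 to 6 (mean ± SD, n = 3). Set 1 was its highest and set 3 its lowest. Rsub_04911 had its lowest DMSO mean in set 1, at 243 ± 33.3 CPM, and its highest in set 4, at 370.1 ± 54.0 CPM. Set 1 thus held the highest DMSO mean of 1 gene and the lowest of the other.

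The one comparison that did not use the libraries it describes was made by choosing 150 genes, by the same rule, in 5 control sets and taking their SD in the 45 libraries of the sixth. Between 123 and 134 of the genes so chosen were among the 150. In the set left out, between 87 (58.0%) and 105 (70.0%) of the 150 chosen genes fell in the lowest 10% of SD over the genes in the CPM range. Their median SD in sets 1 to 6 was 0.145, 0.172, 0.147, 0.146, 0.129 and 0.137, against 0.243, 0.262, 0.244, 0.239, 0.199 and 0.217 for all genes in the range. A low spread in 5 sets was thus mostly met again in the sixth, in genes whose median abundance in DMSO, 284 to 309 CPM, was also above that of the range. The part of abundance in this was not tested.

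Few of the chosen genes were found in the upper 50% of SD of the set left out: 0, 8, 0, 1, 3 and 2 in sets 1 to 6. Set 2, with Metribuzin-DA and 2-tert-butyl-4-methoxyphenol, held the most. The highest among them was Rsub_00311, named after its value was seen, with an SD of 0.48 in set 2, at percentile 94.6 of the range.

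Rsub_00311 ranked 973 of 3778 over all 270 libraries, with an SD of 0.258, although its SD within groups, 0.0836, was close to the lowest of the 150 genes, 0.0807. In 2-tert-butyl-4-methoxyphenol it stood at 899, 907 and 884 CPM in DMSO and at 2415, 2621 and 2835 CPM at D1. At D2 it stood at 1721, 1755 and 1785 CPM, at D3 at 1125, 1118 and 1173 CPM, and at D4 at 882, 881 and 934 CPM. The 3 levels D1, D2 and D3 lay wholly above DMSO and D4 overlapped it.

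The log2 fold change of Rsub_00311 was 1.65 ± 0.0897 at D1 (edgeR quasi-likelihood, adjusted p = 3.37e-15), 1.03 ± 0.0886 at D2 (adjusted p = 3.94e-10) and 0.36 ± 0.0883 at D3 (adjusted p = 0.02355). At D4 it was 0.00 ± 0.0885 (edgeR adjusted p = 0.9997). In 3,4-Dichlorophenyl isocyanate Rsub_00311 also rose, from 778, 807 and 859 CPM in DMSO to 1233, 1184 and 1198 CPM at D1, by a log2 fold change of 0.54 ± 0.0871 (edgeR quasi-likelihood, adjusted p = 1.46e-04). Both D1 calls held under every alternative tried. At D2 of 3,4-Dichlorophenyl isocyanate the log2 fold change was 0.41 (edgeR adjusted p = 0.00493). Rsub_00311 thus stood among the 150 genes chosen with set 2 left out and not among those chosen over all libraries.

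Over the 84 treated groups, the largest difference of a group mean from its own DMSO mean had a median of 0.39 over the 150 genes and 0.64 over the others, on the log2 scale. It stayed under 0.5 in 125 of the 150 genes (83.3%) and in 812 of the 3628 others (22.4%). It stayed under 1 in 150 of the 150 genes and in 3124 of the others (86.1%). The highest was 0.88, for Rsub_06290 at D1 of 2-tert-butyl-4-methoxyphenol. That group also held the largest difference of 29 of the 150 genes, while no other group held that of more than 7.

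The mean shift of all 150 genes from DMSO ran from −0.073 ± 0.031 (SD, n = 3) on the log2 scale at D1 of 2-tert-butyl-4-methoxyphenol to 0.042 at D5 of 3,4-Dichlorophenyl isocyanate. With totals scaled by the trimmed mean of M-values (TMM) the first of these was 0.02, so its sign rests on the scaling. Over the 84 groups the TMM-scaled shift ran from −0.077, at D6 of 4-chlorophenyl methyl sulfone, to 0.0941, at D2 of Gabapentin. The 150 genes together therefore gave no direction for that group that held under both scalings.

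At D1, 55 of the 150 genes were called in 1 or more chemicals and 95 in none: 38 in 1 chemical, 13 in 2, 2 in 3 and 2 in 4. The 55 are 36.7% of the 150, beside 35.1% of the 8709 genes tested in every fit. Of the other genes in the CPM range, 1821 of the 3627 so tested were called. The 78 calls had log2 fold changes between 0.27 and 0.88 in size, with a median of 0.42, and 37 were higher and 41 lower than DMSO. In 75 of the 78 calls (96.2%) the 3 D1 libraries did not overlap the 3 DMSO libraries, beside 92.2% of the 5799 D1 calls of all genes, and nothing is read from the difference. Of the 78, 18 held with each single DMSO or D1 library left out, and the same number held under every alternative. No log2 fold change of the 150 genes at D1 exceeded 1 in size.

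2-tert-butyl-4-methoxyphenol, a phenolic antioxidant, had the most of the 150 genes called at D1, 30 of them, 17 higher and 13 lower, beside 18.3% of all genes tested. It was 13 on leaving out DMSO library A and 19 on leaving out DMSO library B. Gabapentin, an anticonvulsant, had 17 (11.3%), 10 higher and 7 lower, beside 14.0%, and 11 on leaving out D1 library C. In 4-chlorophenyl methyl sulfone 14 were called (9.33%), 4 higher and 10 lower, beside 9.45%. Every single library moved that count: it was 4, 6 and 8 on leaving out DMSO libraries A, B and C and 6, 5 and 9 on leaving out D1 libraries A, B and C. These shares are set beside the background only, since the D1 libraries took part in the choice.

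In 3,4-Dichlorophenyl isocyanate 6 of the 150 genes were called at D1, beside 5.48% of all genes tested, and 1 on leaving out DMSO library A, DMSO library B or D1 library B. Fipronil carboxamide, a product of the insecticide fipronil, had 4, beside 5.63%, and 1 on leaving out DMSO library A or D1 library C. 1(2H)-Phthalazinone had 2, beside 1.83%, with 7 on leaving out DMSO library A and 1 on leaving out any other single library. cis-nonachlordane, a chlordane constituent, had 2, beside 2.57%, with 3 on leaving out DMSO library C and 0 on leaving out any other single library, where the full data gave 24 at an unadjusted p under 0.05 and 2 by DESeq2.

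Metribuzin-DA, Hydrochlorothiazide and Cetirizine Hydrochloride each had 1 of the 150 genes called at D1, beside 0.89%, 1.47% and 0.666% of all genes tested. For Metribuzin-DA edgeR gave 0 on leaving out DMSO library A or D1 library B and 2 on leaving out D1 library C, with 26 at an unadjusted p under 0.05 and 4 by DESeq2 in the full data. For Hydrochlorothiazide it was 0 on leaving out DMSO library A or B or D1 library B or C, with 17 unadjusted and 2 by DESeq2. For Cetirizine Hydrochloride it was 0 on leaving out DMSO library C or D1 library A or B, with 8 unadjusted and 1 by DESeq2.

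Fexofenadine and Metolachlor OA had 0 of the 150 genes called at D1 by edgeR's quasi-likelihood test, beside 0.418% and 1.6% of all genes tested. Of the 150, 5 and 14 passed an unadjusted 0.05, and the count by DESeq2 was 0 in both. Over the 12 chemicals the median size of the D1 log2 fold change was 0.08 to 0.19 in the 150 genes and 0.17 to 0.35 in all genes tested. The median of the signed change was 0.11 in Gabapentin, beside −0.01 for all genes tested, and 0.04 in 2-tert-butyl-4-methoxyphenol, beside 0.02.

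**Figure D4:**
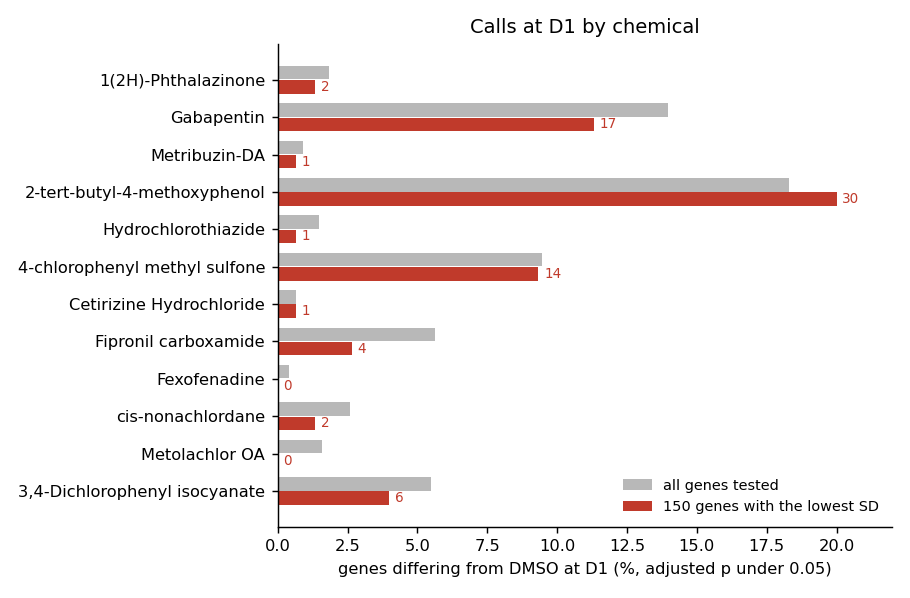
Share of genes called at D1 against DMSO in each chemical (edgeR, adjusted p under 0.05), for 150 genes with the lowest SD (red bars, with the number called) and for all genes tested (grey bars). The red bars range from 0 genes, in Fexofenadine and Metolachlor OA, to 30, in 2-tert-butyl-4-methoxyphenol.

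Tested over all 7 levels at once, 29 of the 150 genes were called in 1 or more chemicals, 23 in 1 chemical and 6 in 2. The 29 are 19.3% of the 150, beside 24.3% of the 8709 genes tested in every fit. Of the other genes in the CPM range, 1387 of the 3627 so tested were called. Gabapentin had 13, beside 11.6% of all genes tested, with 7 on leaving out DMSO library B and 8 on leaving out D1 library B or C. 2-tert-butyl-4-methoxyphenol also had 13, beside 10.1%, and between 12 and 17 when single DMSO or D1 libraries were left out. 4-chlorophenyl methyl sulfone had 6, beside 7.18%, with 3 on leaving out DMSO library A and 2 on leaving out DMSO library B. In 3,4-Dichlorophenyl isocyanate 2 were called, beside 2.51%, with 1 on leaving out DMSO library A or B or D1 library A or C and 0 on leaving out D1 library B, where the full data had 17 at an unadjusted p under 0.05 and 4 by DESeq2. 1(2H)-Phthalazinone had 1, beside 1.25%, and 0 on leaving out DMSO library B or D1 library A or C, with 8 unadjusted and 1 by DESeq2.

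In the other 7 chemicals edgeR's quasi-likelihood test called 0 of the 150 genes over all levels. They were Metribuzin-DA, beside 0.869% of all genes tested, Hydrochlorothiazide, beside 0.906%, Cetirizine Hydrochloride, beside 1.02%, and Fipronil carboxamide, beside 2.34%. The rest were Fexofenadine, beside 0.606%, cis-nonachlordane, beside 0.896%, and Metolachlor OA, beside 2.48%. In this order of 7, 12, 4, 4, 12, 5, 16 and 4 of the 150 genes passed an unadjusted 0.05, while counts by DESeq2 were 3, 0, 1, 2, 0, 0 and 2.

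Gabapentin and 4-chlorophenyl methyl sulfone were the chemicals in which some of the 150 genes were called at every level. In Gabapentin the counts from D2 to D7 were 11, 9, 10, 7, 5 and 1, beside 5.32%, 4.23%, 3.62%, 3.58%, 3.02% and 1.73% of all genes tested. Leaving out DMSO library A gave 10, 6, 8, 6, 1 and 1, leaving out B gave 5, 4, 4, 3, 3 and 1, and leaving out C gave 12, 12, 9, 9, 8 and 7. In 4-chlorophenyl methyl sulfone they were 8, 10, 5, 10, 12 and 2, beside 6.54%, 9.03%, 6.84%, 7.68%, 11.6% and 4.68%. There, leaving out DMSO library A gave 2, 6, 2, 3, 6 and 0, leaving out B gave 4, 5, 2, 6, 8 and 0, and leaving out C gave 7, 9, 7, 10, 13 and 2. All 7 levels of a chemical were set against the same 3 DMSO libraries, and several of these counts moved by over 1.5 times when 1 of them was left out.

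The largest rises at D1 were in 2-tert-butyl-4-methoxyphenol. Rsub_07848, ranked 40, stood at 535, 520.5 and 532 CPM in DMSO and at 769.8, 982 and 954 CPM at D1. The groups lay far apart, and D1 library A was the lowest of the 3. Its log2 fold change was 0.88 ± 0.108 (edgeR quasi-likelihood, adjusted p = 2.97e-07). At D2 it stood at 666, 775 and 661 CPM, a log2 fold change of 0.47 ± 0.108 (adjusted p = 0.00503).

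Rsub_10858, ranked 83, stood at 453, 491 and 535 CPM in DMSO and at 575, 952 and 917 CPM at D1 of 2-tert-butyl-4-methoxyphenol. D1 library A again lay below B and C, here only a little above DMSO. The log2 fold change was 0.83 ± 0.139 (edgeR quasi-likelihood, adjusted p = 4.67e-05). It remained called under every alternative, with values between 0.69 and 1.01.

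The largest fall was that of Rsub_06290, ranked 58, in the same chemical. It stood at 805, 797 and 735 CPM in DMSO and at 444, 444 and 383 CPM at D1. Every D1 library was thus far below every DMSO library. The log2 fold change was −0.78 ± 0.101 (edgeR quasi-likelihood, adjusted p = 8.53e-07), and −0.84 to −0.73 under the alternatives, all of them called.

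In Gabapentin the same gene moved the other way. Rsub_06290 stood at 690.4, 658 and 619 CPM in DMSO and at 766, 871 and 810.4 CPM at D1, a log2 fold change of 0.38 ± 0.0975 (edgeR quasi-likelihood, adjusted p = 0.00567). Its D1 libraries lay above DMSO without overlap, and the call held under every alternative, with adjusted p up to 0.0462. It was also called from D2 to D6, with log2 fold changes between 0.41 and 0.56, the highest at D5. In 1(2H)-Phthalazinone, compared with the same DMSO libraries, it stood at 897, 809 and 789.5 CPM at D1, a log2 fold change of 0.40 ± 0.111 (adjusted p = 0.0488). That call ended with RLE scaling, with a minimum mean count of 10, and on leaving out DMSO library B or C or any D1 library, with adjusted p up to 0.178. The DMSO mean of Rsub_06290 was lowest in set 1, at 656 CPM, and ran from 710 to 870 CPM in sets 2 to 6. Its D1 means, 816 CPM in Gabapentin and 832 CPM in 1(2H)-Phthalazinone, lay within that range of the other sets. The part of the sets was not tested.

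Rsub_06649, ranked 78, had the second largest fall. In Gabapentin it stood at 416, 344 and 265 CPM in DMSO and at 171, 221 and 219.6 CPM at D1. The DMSO libraries were themselves spread, yet all lay above D1. The log2 fold change was −0.68 ± 0.14 (edgeR quasi-likelihood, adjusted p = 4.63e-04), and it held under every alternative, between −0.83 and −0.53. In 4-chlorophenyl methyl sulfone Rsub_06649 was called lower from D1 to D6, with log2 fold changes between −0.47 and −0.35. It was not called there over all levels (edgeR quasi-likelihood, adjusted p = 0.0722).

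Rsub_03935, the gene with the widest range of DMSO means, was lower at D1 in both chemicals of set 1, where its DMSO level was highest. It stood at 586, 512 and 473 CPM in DMSO, at 316, 367 and 336 CPM in 1(2H)-Phthalazinone and at 331, 323 and 361 CPM in Gabapentin. Neither treated group overlapped DMSO, and both are read against the same 3 libraries. The log2 fold changes were −0.56 ± 0.111 (edgeR quasi-likelihood, adjusted p = 0.00283) and −0.57 ± 0.107 (adjusted p = 1.55e-04), and both held under every alternative. In Gabapentin Rsub_03935 was also called at D2 to D7, with log2 fold changes between −0.60 and −0.41. It was also called lower at D2 of 1(2H)-Phthalazinone, by −0.50 ± 0.111 (edgeR adjusted p = 0.0363), and, against the DMSO libraries of set 5, at D2 of cis-nonachlordane, by −0.40 ± 0.101 (adjusted p = 0.0239). Over all levels of cis-nonachlordane it was not called (edgeR adjusted p = 0.279). Its treated levels in set 1 lay near its DMSO levels in sets 3 and 4, 342 and 381 CPM. They lay below its DMSO levels in sets 2, 5 and 6, 471, 482 and 428 CPM. Sets also differ in chemicals and depth, and the part of the sets was not tested.

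Rsub_08586, ranked 138, was called over all levels in Gabapentin (edgeR quasi-likelihood, adjusted p = 0.0111) and in 2-tert-butyl-4-methoxyphenol (adjusted p = 3.73e-04), both under every alternative. In 2-tert-butyl-4-methoxyphenol it stood at 138, 161 and 187 CPM in DMSO, at 268, 225.4 and 228 CPM at D1 and at 241, 228 and 209 CPM at D2. Both levels lay above DMSO. The log2 fold change was 0.67 ± 0.154 at D1 (edgeR quasi-likelihood, adjusted p = 0.00215) and 0.54 ± 0.154 at D2 (adjusted p = 0.03004). In Gabapentin, against other DMSO libraries, it was lower at D3, by −0.42 ± 0.13 (adjusted p = 0.0498), and at D6, by −0.47 ± 0.132 (adjusted p = 0.0337). At D7 of cis-nonachlordane it was lower by −0.53 ± 0.12 (edgeR adjusted p = 0.011), although it was not called there over all levels. Its DMSO means in sets 1 to 6 were 233.5, 162, 174, 163, 220 and 198 CPM. In Gabapentin its means, 168 CPM at D3 and 161 CPM at D6, lay near the DMSO means of sets 2 to 4. Those at D1 of 2-tert-butyl-4-methoxyphenol, 240.5 CPM, and at D7 of cis-nonachlordane, 153.5 CPM, lay outside the range of DMSO means. The part of the sets was not tested.

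The genes called at D1 in the most chemicals were Rsub_03338 and Rsub_08568, both named after their values were seen, each in 4 chemicals and each lower in all 4. Rsub_03338 stood at 686, 772 and 790.1 CPM in DMSO and at 588, 543 and 559.7 CPM at D1 of Gabapentin, a log2 fold change of −0.35 ± 0.102 (edgeR quasi-likelihood, adjusted p = 0.0141). In Metribuzin-DA it stood at 799.5, 655 and 744 CPM in DMSO and at 558, 507 and 524 CPM at D1, a log2 fold change of −0.46 ± 0.103 (edgeR quasi-likelihood, adjusted p = 0.0169). In set 3 its DMSO libraries stood at 774, 657 and 637 CPM, against 562, 509 and 441 CPM in Hydrochlorothiazide and 518, 553 and 579 CPM in 4-chlorophenyl methyl sulfone. No D1 group overlapped its DMSO libraries.

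The last 2 comparisons share DMSO libraries, and gave Rsub_03338 log2 fold changes of −0.44 ± 0.118 (edgeR quasi-likelihood, adjusted p = 0.0373) and −0.35 ± 0.0969 (adjusted p = 0.0116). Each of its 4 calls ended when any of at least 2 single libraries was left out. Those were DMSO library B and D1 libraries B and C in Gabapentin, and DMSO library A and D1 library B in Metribuzin-DA. In Hydrochlorothiazide they were DMSO libraries A and B and D1 libraries B and C, and in 4-chlorophenyl methyl sulfone DMSO library A and D1 library A. Adjusted p then reached 0.0643, 0.138, 0.278 and 0.152. The DMSO means of Rsub_03338 were highest in sets 1 to 3, which hold these 4 chemicals, at 749, 733 and 689 CPM. In sets 4 to 6 they were 601.5, 639 and 627 CPM. Each D1 library listed above for this gene lay below all of these means. The part of the sets was not tested.

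Rsub_08568 was called at D1 in 4 chemicals of 4 different sets. In Fipronil carboxamide it stood at 775, 706 and 682 CPM in DMSO and at 476, 536 and 538 CPM at D1, a log2 fold change of −0.49 ± 0.102 (edgeR quasi-likelihood, adjusted p = 0.00148). In 2-tert-butyl-4-methoxyphenol it stood at 855, 691 and 794 CPM in DMSO and at 632, 472 and 534 CPM at D1, a log2 fold change of −0.41 ± 0.106 (adjusted p = 0.00522). Both calls held under every alternative, and no D1 library reached the DMSO range in either. The other 2 calls, −0.34 ± 0.0976 in Gabapentin (edgeR adjusted p = 0.014) and −0.47 ± 0.112 in 4-chlorophenyl methyl sulfone (adjusted p = 0.00325), ended on leaving out DMSO library A. The first of them also ended on leaving out DMSO library B or D1 library C, with adjusted p up to 0.0595 and 0.0725. In 4-chlorophenyl methyl sulfone Rsub_08568 was also called lower at D2 and D7, by −0.35 and −0.38, but not over all levels (edgeR adjusted p = 0.0936). There the D2 libraries, at 647, 585 and 548 CPM, overlapped the DMSO libraries, at 850, 743 and 621 CPM, and the D7 libraries did not.

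**Figure D5:**
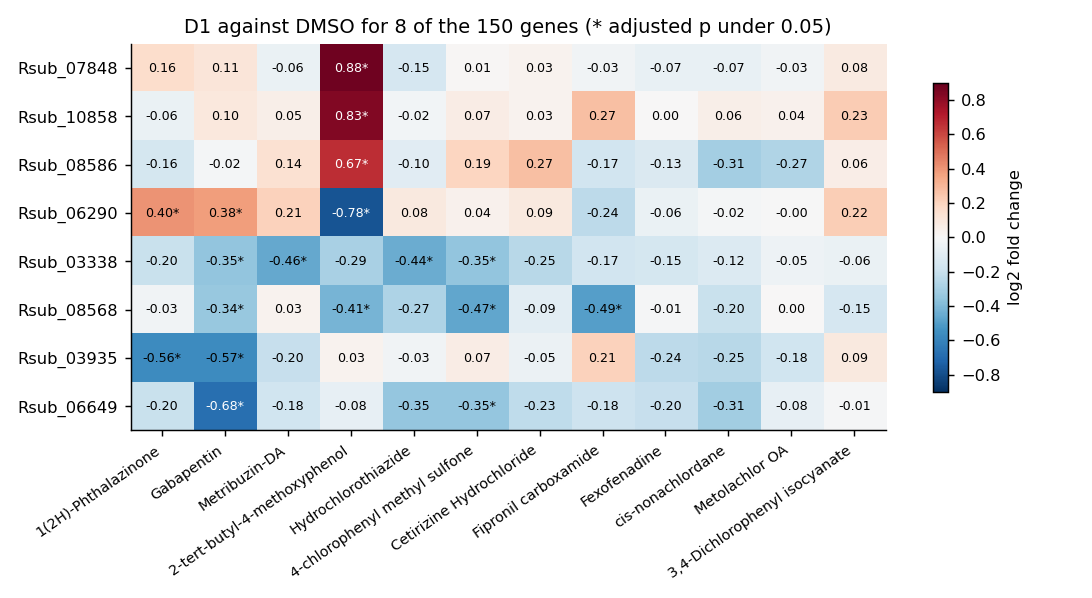
Log2 fold change at D1 against DMSO (edgeR, TMM scaling) of 8 of the 150 genes in the 12 chemicals, with called values starred and each pair of neighbouring chemicals from the left compared with the same DMSO libraries. Rsub_06290 runs from −0.78 in 2-tert-butyl-4-methoxyphenol to 0.40 in 1(2H)-Phthalazinone, and Rsub_03338 and Rsub_08568 are starred in 4 chemicals each, always below 0.

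At the other end, 78 of the 150 genes were called at no single level of any chemical, and 62 of these were also not called over all levels or among the DMSO sets. The other 72 (48.0%) were called at 1 or more levels, beside 45.6% of the 8709 genes tested in every fit, and 88 (58.7%) were called in at least 1 of these tests, beside 57.8%. Neither share is far from that of all genes tested. Of the other genes in the CPM range, 2257 of 3627 were called at 1 or more levels and 2780 in at least 1 of these tests. These libraries took part in the choice, so nothing is read from the difference. Rsub_01110, Rsub_07741 and Rsub_02796 had D1 log2 fold changes between −0.16 and 0.25 in all 12 chemicals, and the smallest adjusted p among them by edgeR's quasi-likelihood test was 0.0543. A p above the threshold does not show that a gene did not change. Under each of the 22 other ways of choosing 150 genes, 30 of the 150 were chosen, the 6 with the lowest SD among them.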

How the data were processed

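Poly(A) RNA of 270 libraries was counted by a QuantSeq 3′ kit with unique molecular identifiers, per the labels' protocols. The values used are the raw counts per gene that the authors deposited, in 12 tables, 1 for each chemical. Tools named in the submitters' processing notes are featureCounts 2.0.6, STAR 2.7.10a, fastp 0.23.2 and SAMtools 1.15.1, with no role or order. Not given in the sources used here are the collapsing of reads by molecular identifier, the strand setting, the annotation and the genome build. Without collapsing, PCR copies would be counted, and the counting part given in the text, which covers counting error only, would be too small. Genes that share reads with a near-identical or overlapping gene could not be marked. Of the 18 DMSO libraries, each listed in 2 tables, 16 had identical counts in both and 2 differed by 1 count in 1 gene.

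CPM values use column totals. Each chemical was fitted alone on its 24 libraries with edgeR 4.0.16 in R 4.3.3 (filterByExpr, TMM, quasi-likelihood, 1 coefficient per level, no block), and the 18 DMSO libraries were fitted with 1 coefficient per control set. All 150 genes were tested in every fit. Log2 fold changes are edgeR's, on TMM-scaled totals, and can differ a little from the ratio of the CPM values. An SE was taken as the size of the log2 fold change over the root of F. Benjamini-Hochberg adjustment ran over all genes of a test. Alternatives were DESeq2 1.42.0, RLE scaling, other filters, a replicate block, other rules of choice and single libraries left out. The edgeR fit was tested on simulated counts, with planted changes larger than any D1 change of the 150 genes. The choice of genes and the within-group part of the variance split were tested on simulated counts too. The set and group parts of the split were not.

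Genes named are the 6 with the lowest SD, 2 on each side of the limit, and 3 at each end of abundance. Also named are the 4 called over all levels in the most chemicals, the 2 largest rises and falls at D1, and the 4 with the widest DMSO range. The last are the 4 lowest and 2 highest in within-group variance over counting. Other genes are marked in the text as named after their values were seen. A list of usual reference genes needs gene names and was not used here. The members, lists and tests were chosen with earlier results of these data known.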

Additional observations from a re-analysis of the deposited data

Results flagged for a closer look

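Rsub_06290 moved in opposite directions at D1 in different chemicals, with all 3 treated libraries on 1 side of all 3 DMSO libraries in each. Its log2 fold change was 0.4012 in 1(2H)-Phthalazinone and 0.3753 in Gabapentin, which share their DMSO libraries, and −0.7757 in 2-tert-butyl-4-methoxyphenol, which has others. The difference between the chemicals was not tested. The first value lost its call under 7 of the alternatives named in the text, and the other 2 kept theirs under every alternative. The DMSO mean of Rsub_06290 in set 1, the set of 1(2H)-Phthalazinone and Gabapentin, was 656 CPM, the lowest of the 6 sets. In sets 2 to 6 it ran from 710 to 870 CPM, and the part of the sets was not tested.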

How the results depend on the processing

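Other rules of choice shared between 63 and 150 genes with the 150: 63 when only the 18 DMSO libraries were used, 68 by edgeR's tagwise dispersion, 106 with the counting part subtracted from the SD, a setting chosen after seeing the data, 120 with TMM and 117 with RLE scaling. Of the 150, 97 were chosen without each replicate letter, each control set and D1. The median control-set share of variance was 25.4% with TMM, also chosen after seeing the data. Summed over 12 chemicals, calls over all levels were 35, with 60 by DESeq2 and 22 to 36 when single DMSO or D1 replicates were left out, and D1 calls were 78, with 43 to 72. Calls among the DMSO sets were 36, with 0 to 33 when a replicate was left out. The mean shift at D1 of 2-tert-butyl-4-methoxyphenol was 0.0175 with TMM. The counts of genes in the lowest 10% of a left-out set moved by less than 1.5 times under both alternatives. The causes of these moves were not tested. No called log2 fold change of a named gene at D1 changed sign. Each group held 3 libraries of 596651 to 1909938 counts, which limits the precision.

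With the replicate letter as a replicate block, the 150 genes had 91 calls over all levels, 126 at D1 and 48 among the DMSO sets. In the 7 chemicals with 0 calls over all levels, the block gave 2, 3, 1, 3, 1, 7 and 4, in the order of the text, and in Fexofenadine and Metolachlor OA 1 and 2 at D1. The labels do not say that a letter marks a shared culture or day. Same-letter libraries of different groups had a correlation of deviations over 0.1 in 695 of 1008 pairs, with a lowest value of −0.31. The median by chemical ran from 0.0814 to 0.241 for the same letter. For different letters it ran from −0.134 to −0.0449. Deviations from the mean of a group cancel over its 3 libraries, so these negative values are tied to the first and are no separate evidence. As a hint from the data, 263 of 288 libraries correlated best with their own letter, where each DMSO library counts once in each chemical of its set. Libraries of a letter were thus alike, for a reason not labelled, and the calls in the text were made without a block.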
